A study of Mus musculus with 14 samples.

Results

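The dual-specificity MAP kinase phosphatases were followed through freshly sorted mouse satellite cells, which are the muscle's own stem cells. The group comprised Dusp1, Dusp2, Dusp4, Dusp5, Dusp6, Dusp8, Dusp9, Dusp10 and Dusp16, chosen by gene symbol as 9 of the 49671 genes of each count table. The libraries labelled FosGFP+ (4 libraries) and FosGFP- (4 libraries) came from 4-month-old animals carrying a Fos reporter, sorted by GFP. The libraries labelled FoscKO (3 libraries), with a conditional deletion of Fos, and Control (3 libraries) came from 6-month-old animals. All animals were C57BL/6J, the muscles were resting hind-limb, pectoral and triceps muscle, and each library held RNA of 1000 cells that carried integrin B1 and CXCR4 on their surface and none of the blood, endothelial and mesenchymal antigens Sca1, Ter119, CD11b, CD31 and CD45. The series text gives 4 mice for the first dataset and 3 for the second, which mouse gave which library is not labelled, and p-values here therefore measure the spread between libraries. For FoscKO and Control cells alike the same text names GFP-positive sorting, but whether those animals carried the reporter is not labelled. The driver of the deletion is not given in the sources used here.

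MAP kinases (ERK, JNK and p38) are switched on by phosphorylation of a threonine and a tyrosine in their activation loop, and these phosphatases remove both phosphates. The family falls into a nuclear group that is induced by the signals it ends (Dusp1, Dusp2, Dusp4, Dusp5), a cytoplasmic group that prefers ERK (Dusp6, Dusp9), and a group that prefers the stress kinases JNK and p38 (Dusp8, Dusp10, Dusp16). In muscle stem cells p38 and ERK signalling accompany the exit from quiescence, and several of these phosphatases are known as negative feedback on that signalling.

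RefSeq promoter windows, from 250 bases before to 50 bases after the annotated start, were found for 7 of the 9 genes (GRCm38.p6), and Dusp4 and Dusp9 were without an entry. Each window was searched on both strands for the AP-1 site TGANTCA, bound by Fos and Jun dimers, the cAMP response element TGACGTCA, the ETS site CCGGAAG and the CArG box, the serum response element core; no motif found here overlapped another. No AP-1 site or ETS site of these letters was in any of the 7 windows, against 7.81% and 8.86% of all 32851 windows of this length. That says only that these letters are not in these windows. Dusp1 held 1 cAMP response element and Dusp8 held 2, a motif present in 1.79% of windows and at least 2 times in 0.0396%. Dusp5 held 2 adjacent CArG boxes, a motif present in 1.63% of windows and at least 2 times in 0.0183%. The promoters with a match are shown 5′ to 3′ in the direction of transcription, with the matches in capitals, and those of Dusp6 and Dusp10 beside them because the expression results turn on these genes. Each stops at the RefSeq start or at the first base that GENCODE places in an exon of the gene. Dusp1 is at chr17:26508520-26508722, minus strand, Dusp5 at chr19:53528895-53529108, plus strand, and Dusp8 at chr7:142095285-142095534, minus strand. Dusp6 is at chr10:99262981-99263230, plus strand, and Dusp10 at chr1:184034131-184034380, plus strand.
Dusp1: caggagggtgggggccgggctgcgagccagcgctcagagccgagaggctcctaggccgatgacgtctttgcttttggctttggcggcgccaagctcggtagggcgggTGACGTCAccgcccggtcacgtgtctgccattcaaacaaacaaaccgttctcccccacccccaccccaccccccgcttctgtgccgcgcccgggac
Dusp5: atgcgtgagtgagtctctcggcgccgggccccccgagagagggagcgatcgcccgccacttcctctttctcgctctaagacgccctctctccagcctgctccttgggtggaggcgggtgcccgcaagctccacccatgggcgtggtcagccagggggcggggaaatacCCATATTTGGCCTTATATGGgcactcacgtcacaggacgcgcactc
Dusp8: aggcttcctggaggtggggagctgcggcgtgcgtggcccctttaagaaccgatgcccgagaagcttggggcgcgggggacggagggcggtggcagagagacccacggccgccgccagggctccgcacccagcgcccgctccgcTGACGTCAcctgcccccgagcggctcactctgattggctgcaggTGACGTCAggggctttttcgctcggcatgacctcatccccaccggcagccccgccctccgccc
Dusp6: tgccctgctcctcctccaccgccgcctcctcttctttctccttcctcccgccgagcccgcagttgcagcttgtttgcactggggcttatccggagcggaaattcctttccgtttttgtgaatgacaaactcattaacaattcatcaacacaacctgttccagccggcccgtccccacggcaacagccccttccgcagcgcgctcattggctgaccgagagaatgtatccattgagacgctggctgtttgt
Dusp10: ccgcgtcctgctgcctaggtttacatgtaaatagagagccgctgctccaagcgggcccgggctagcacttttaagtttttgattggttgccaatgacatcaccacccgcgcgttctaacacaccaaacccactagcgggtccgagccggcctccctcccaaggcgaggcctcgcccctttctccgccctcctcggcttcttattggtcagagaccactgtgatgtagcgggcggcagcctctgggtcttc

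Counts assigned to genes were 3806776 to 5983711 in the FosGFP+ libraries, 2652230 to 4067543 in FosGFP-, 4797954 to 10241655 in FoscKO and 5326686 to 6930696 in Control. Reads in genes were 19.7% ± 2.62 of the total in FosGFP+, against 12.9% ± 1.74 in FosGFP- (SD, n = 4 each). FoscKO replicate 1 stood apart from the other libraries, with 30.2% of its reads in genes and 31483 genes with a count. The Fos transcript averaged 4586 ± 1050 CPM (reads of a gene scaled to a common library size) in FosGFP+ and 10921 ± 2123 CPM in FosGFP- (SD, n = 4 each). The change of -1.25 ± 0.21 on the log2 scale passed the test (SE; adjusted p = 9.33e-04, edgeR). Fos mRNA thus ran opposite to the reporter label, which was set by GFP. The reason was not tested, and every FosGFP+ direction given here rests on the labels as they stand. The Fos transcript averaged 5041 ± 2982 CPM in FoscKO and 4934 ± 174 CPM in Control (SD, n = 3 each). Gene-level counts cannot show which exons were deleted, so this does not check the deletion. The summed level of 10 satellite-cell markers was 8099 to 11959 CPM in FosGFP+ libraries, all above the 4321 to 6776 CPM of FosGFP- libraries, with 7 of 10 means higher and 3 lower. The means of all 8 endothelial markers were lower in FosGFP+, with sums of 191 to 237 CPM in FosGFP+ and 230 to 334 CPM in FosGFP-. Leukocyte sums were 47.6 to 81.9 CPM in FosGFP+ and 72.2 to 132 CPM in FosGFP-, with 6 of 7 means lower. Fibro-adipogenic progenitor sums were 322 to 659 CPM in FosGFP+ and 515 to 920 CPM in FosGFP-, with 4 of 7 means lower. Mature fibre sums were 538 to 1144 CPM in FosGFP+ and 527 to 729 CPM in FosGFP-, with 7 of 8 means higher, and smooth muscle and pericyte sums were 207 to 321 CPM in FosGFP+ and 174 to 450 CPM in FosGFP-, with 6 of 7 means lower. No marker was at 0 in every library. The part that reads in genes, cell mixture and markers play in the differences below was not tested, and in bulk libraries fewer cells of a type and less RNA per cell cannot be told apart.

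Between the reporter classes the transcripts of 4 phosphatases rose and none fell past an adjusted p of 0.05 (edgeR quasi-likelihood test, Benjamini-Hochberg over all 20698 genes tested). Dusp10, Dusp5, Dusp6 and Dusp4 were 2.15-fold to 2.64-fold higher in FosGFP+ cells, while Dusp1, by far the most abundant member, was lower in every FosGFP+ library without passing the test. Of all genes tested, 12.1% were called, 10.3% higher and 1.85% lower. Dusp9 fell below the filter on low counts, so that 8 of the 9 members were tested. Their median log2 fold change was 0.87, against -0.18 for all genes, many of which were of lower level than most members. The gap to genes of like level was not computed. With TMM scaling taken from genes of at least 50 CPM, log2 fold changes over all genes moved by a median of -0.60. The groups did not overlap, in the FosGFP+ direction, for Dusp5, Dusp6, Dusp10 and Dusp16, against 12.9% of all genes, and in the other direction for Dusp1, against 6.45% of all genes.

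**Figure D1:**
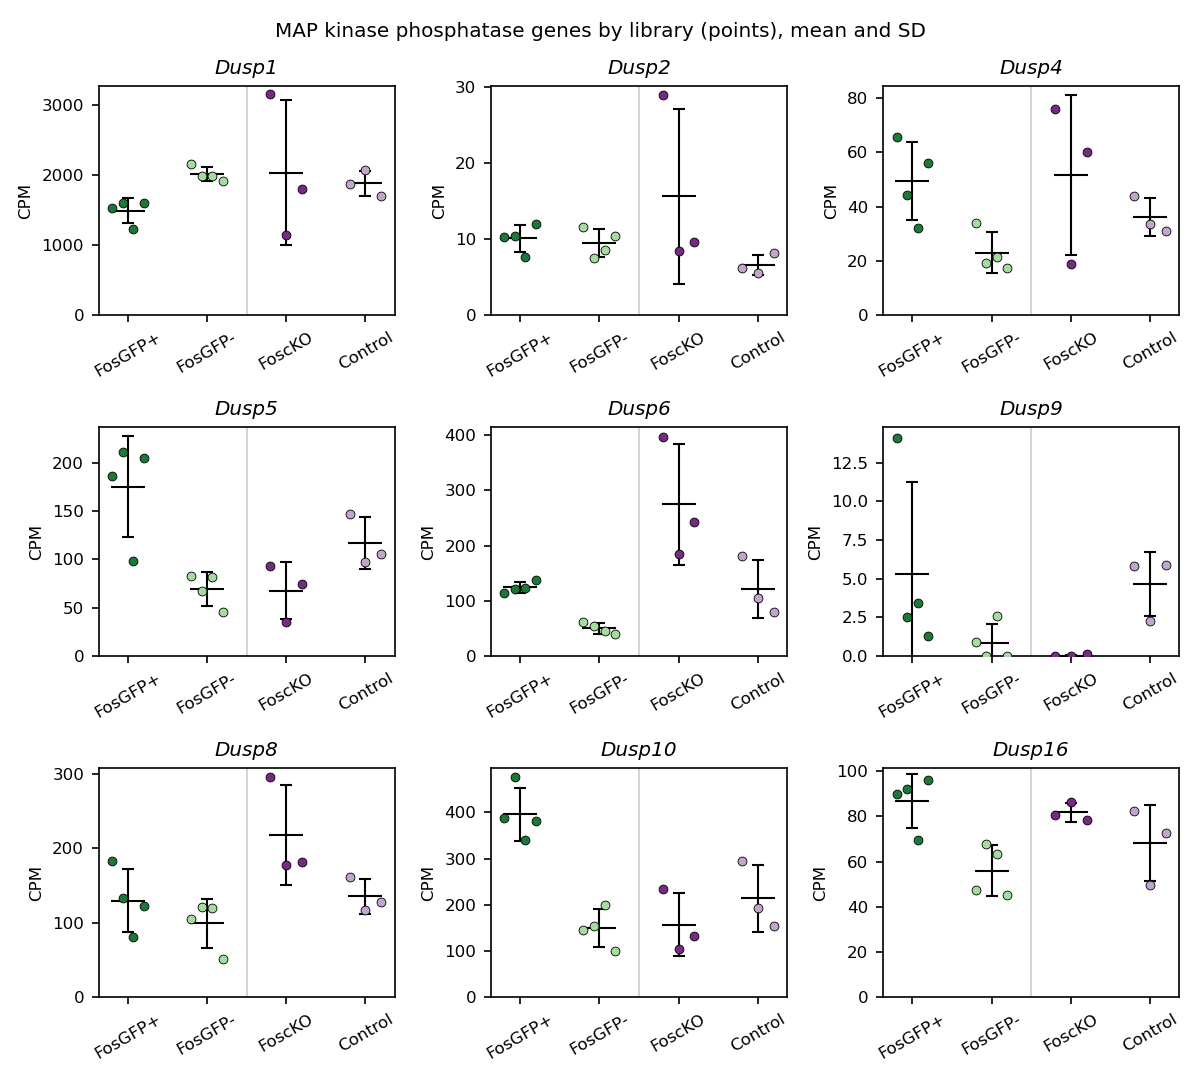
Level of each phosphatase (CPM, linear axis from 0) in every library, with FosGFP+ and FosGFP- left of the grey line and FoscKO and Control right of it; points are libraries, the long bar is the mean and the whiskers are 1 SD. Dusp5, Dusp6, Dusp10 and Dusp16 were higher in each FosGFP+ library than in any FosGFP- library and Dusp1 was lower in each, whereas FoscKO replicate 1 (the first purple point) was the highest FoscKO library for 7 of the 9 genes.

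Among the nuclear inducible phosphatases, Dusp1 (ENSMUSG00000024190, chr17:26505590-26562128), the classical immediate early phosphatase of p38 and JNK, had 1535, 1604, 1223 and 1601 CPM in the FosGFP+ libraries, against 2153, 1979, 1990 and 1916 CPM in the FosGFP- libraries. Every FosGFP+ library lay under every FosGFP- library. Its log2 fold change was -0.43 ± 0.16 (SE; adjusted p = 0.0918, edgeR). With scaling by total counts it was -0.84 and was called lower (adjusted p = 0.00105, edgeR). The median of all genes was then -0.58, and 2243 of the 20698 genes were called lower. The sign of the Dusp1 change thus did not depend on the scaling, but its size and its call did. Taken as a ratio to Dusp5 within a library, 35.9% of 20069 genes had a log2 difference at or below that of Dusp1, so such a fall was common.

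Dusp5 (ENSMUSG00000034765, chr19:53529109-53542431), a nuclear phosphatase that acts on ERK alone and holds it in the nucleus, had 186, 211, 98.1 and 204 CPM in FosGFP+ libraries, against 82.9, 67.5, 82.2 and 45.4 CPM in FosGFP- libraries. The groups did not overlap, although the third FosGFP+ library came close to the highest FosGFP- libraries. Dusp5 rose by a log2 fold change of 1.33 ± 0.25 (SE; adjusted p = 0.00255, edgeR). An antisense gene annotated over 547 of its exonic bases was not in the count table. The kit does not keep the strand, so reads from that gene and from Dusp5 cannot be told apart.

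Dusp4 (ENSMUSG00000031530, chr8:34807297-34819894), a nuclear phosphatase of ERK and JNK, had 65.5, 44.5, 32.1 and 56.0 CPM in FosGFP+ libraries, against 34.1, 19.2, 21.3 and 17.3 CPM in FosGFP- libraries. The lowest FosGFP+ library lay just under the highest FosGFP- library. The log2 fold change of 1.10 ± 0.28 (SE) passed the test (adjusted p = 0.0153, edgeR). It was lost with scaling by total counts, where it was 0.71 (adjusted p = 0.0787, edgeR). Dusp2 (ENSMUSG00000027368, chr2:127336159-127338376), a nuclear phosphatase known from activated lymphocytes, had 7.68 to 12.0 CPM in FosGFP+ and 7.47 to 11.6 CPM in FosGFP- libraries. Those ranges were nearly the same, and the log2 fold change was 0.08 ± 0.33 (SE; adjusted p = 0.896, edgeR).

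Dusp6 (ENSMUSG00000019960, chr10:99263231-99267489), the cytoplasmic feedback phosphatase of ERK, had 115, 122, 123 and 138 CPM in FosGFP+ libraries, against 62.6, 54.8, 45.1 and 40.6 CPM in FosGFP- libraries. The lowest FosGFP+ library was well above the highest FosGFP- library, and the spread within each group was small. The means were 124 ± 9.90 CPM in FosGFP+ and 50.8 ± 9.85 CPM in FosGFP- (SD, n = 4 each), and Dusp6 rose by a log2 fold change of 1.29 ± 0.19 (SE; adjusted p = 4.63e-04, edgeR).

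Dusp9 (ENSMUSG00000031383, chrX:73639419-73643514), the other cytoplasmic member and best known from placenta, was near the limit of detection. Its raw counts were 59, 12, 12 and 6 in FosGFP+ libraries, against 4, 0, 9 and 0 in FosGFP- libraries. The groups overlapped, and the first FosGFP+ library held most of the reads. Summed over libraries the counts were 89 in FosGFP+ and 13 in FosGFP-, a depth-scaled ratio of 5.93 (95% interval 3.29 to 11.6, covering counting error only). Without FosGFP+ replicate 1 they were 30 and 13, a ratio of 2.65 (1.34 to 5.53). An even background, taken from genes of olfactory, vomeronasal and taste receptors, would place 8.51 to 10.6 reads on Dusp9 in each FosGFP+ library. In each FosGFP- library it would place 10.2 to 11.7 reads, and every FosGFP- count lay below that. This background is thus too high for Dusp9 and cannot show which FosGFP+ counts are background. The first FosGFP+ library alone stood well above it. With no filter on low counts edgeR gave a log2 fold change of 2.63 ± 0.86 (SE; adjusted p = 0.0759), and in the authors' deposited table it is 1.46 (adjusted p = 0.0324) once turned to the FosGFP+ direction.

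Dusp10 (ENSMUSG00000039384, chr1:184013302-184075636), a phosphatase of JNK and p38 that is known to restrain muscle stem cells in regenerating mouse muscle, showed the largest fold change of the tested members. It had 387, 477, 340 and 381 CPM in FosGFP+ libraries, against 145, 155, 200 and 101 CPM in FosGFP- libraries. All FosGFP+ libraries were far above all FosGFP- libraries. The log2 fold change was 1.40 ± 0.21 (SE; adjusted p = 4.76e-04, edgeR).

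Dusp16 (ENSMUSG00000030203, chr6:134715468-134792625), which prefers JNK, had 89.8, 92.1, 69.4 and 96.0 CPM in FosGFP+ libraries, against 47.4, 67.8, 63.5 and 45.4 CPM in FosGFP- libraries. The groups met without overlap, and the log2 fold change of 0.63 ± 0.20 (SE) narrowly missed the threshold (adjusted p = 0.0525, edgeR). In the authors' deposited table it is 0.70 (adjusted p = 0.0133), turned to the FosGFP+ direction. It was 0.03 when TMM was computed from genes of at least 50 CPM. Dusp8 (ENSMUSG00000037887, chr7:142079490-142095843), another JNK and p38 phosphatase, had 80.5 to 183 CPM in FosGFP+ and 51.1 to 121 CPM in FosGFP- libraries, with broad overlap and a log2 fold change of 0.38 ± 0.28 (SE; adjusted p = 0.392, edgeR).

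The scaling mattered in this comparison. Total counts shifted the median of all genes by -0.40 and TMM from genes of at least 50 CPM by -0.60 on the log2 scale, and the split of calls over all genes moved to 1005 higher and 2243 lower with total counts and to 686 higher and 5580 lower with that TMM. Dusp5, Dusp6 and Dusp10 remained called higher under all 10 alternative settings and with each of the 8 libraries left out. Their smallest log2 fold changes over those settings were 0.73 for Dusp5, 0.69 for Dusp6 and 0.81 for Dusp10. The authors' deposited table lists 3422 genes for this comparison, among them Dusp4, Dusp5, Dusp6, Dusp9, Dusp10 and Dusp16. That is more genes than the 2508 called by edgeR, and DESeq2 run here called 2779 higher and 644 lower of 20698.

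**Figure D2:**
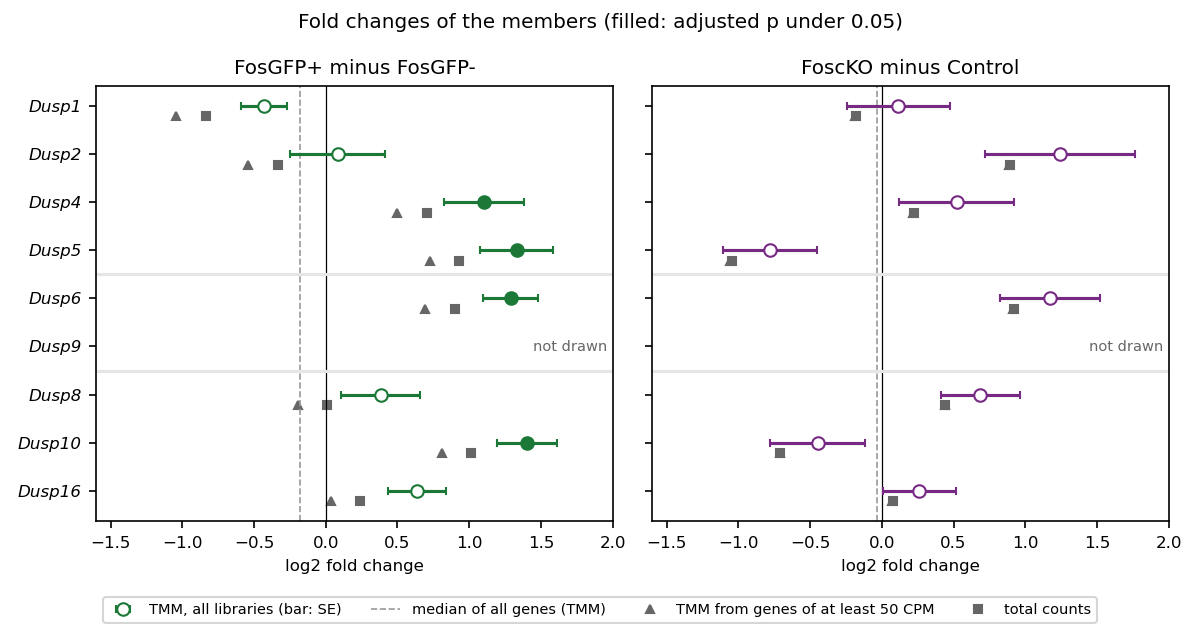
Log2 fold change of each member, FosGFP+ minus FosGFP- (left) and FoscKO minus Control (right), with the edgeR estimate under TMM as a circle (filled where the adjusted p was under 0.05, bar 1 SE), the estimates under 2 other scalings in grey and the median of all genes as a dashed line. Dusp4, Dusp5, Dusp6 and Dusp10 are filled on the left and no member is filled on the right; Dusp9, of very low counts, is not drawn.

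Between FoscKO and Control no phosphatase passed the test, nor did any of the 21885 genes (0% called), although 5.52% of all genes had an unadjusted p under 0.05 in edgeR DESeq2 called 59 genes higher and 32 lower, and limma-voom 3 in each direction, none of them a phosphatase of this family. Of the 9 members, 5 had an unadjusted p under 0.05. Dusp2, Dusp6 and Dusp8 were higher in every FoscKO library than in any Control library, against 5.75% of all genes, and Dusp5 and Dusp9 were lower in each, against 6.47% of all genes. The median log2 fold change of the 9 members was 0.26, against -0.04 for all genes. The authors' deposited table lists 69 genes for this comparison and no member is among them. The means of all 8 mature fibre markers were lower in FoscKO, with sums of 382 to 1447 CPM in FoscKO and 1263 to 2565 CPM in Control, and fibro-adipogenic progenitor sums were 299 to 376 CPM in FoscKO and 200 to 292 CPM in Control, with 5 of 7 means higher. Smooth muscle and pericyte sums were 408 to 1050 CPM in FoscKO and 225 to 506 CPM in Control (4 of 7 means higher), and satellite-cell sums 6005 to 10635 CPM in FoscKO and 5771 to 7965 CPM in Control (7 of 10 higher). Endothelial sums were 194 to 241 CPM in FoscKO and 178 to 215 CPM in Control (2 of 8 higher), and leukocyte sums 41.7 to 80.0 CPM in FoscKO and 38.8 to 75.7 CPM in Control (2 of 7 higher). Their part in these values was not tested.

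Dusp6 had 397, 185 and 242 CPM in the FoscKO libraries, against 181, 105 and 79.8 CPM in the Control libraries. The groups only just failed to overlap, since the second FoscKO library and the first Control library were nearly level. The log2 fold change was 1.17 ± 0.35 (SE; unadjusted p = 0.00455, adjusted p = 0.609, edgeR), and without FoscKO replicate 1 it was 0.81 ± 0.29 (SE; adjusted p = 0.682, edgeR).

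Dusp5 had 93.4, 35.6 and 74.2 CPM in FoscKO libraries, against 147, 97.6 and 105 CPM in Control libraries. Each FoscKO library was lower than each Control library, by a small margin for the first. In log2 terms the difference was -0.78 ± 0.33 (SE; adjusted p = 0.861, edgeR), and without FoscKO replicate 1 it was -1.08 ± 0.30 (SE; adjusted p = 0.341, edgeR).

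Dusp2 had 28.9, 8.39 and 9.62 CPM in FoscKO libraries, against 6.18, 5.54 and 8.14 CPM in Control libraries. The separation was narrow apart from the first FoscKO library, which was far above all others. The log2 fold change of 1.24 ± 0.52 (SE; adjusted p = 0.871, edgeR) became 0.45 ± 0.47 without that library (adjusted p = 1.000, edgeR). Dusp8 had 296, 177 and 181 CPM in FoscKO libraries, against 161, 117 and 128 CPM in Control libraries, with a log2 fold change of 0.69 ± 0.28 (SE; adjusted p = 0.844, edgeR). Without FoscKO replicate 1 it was 0.41 ± 0.22 (SE). The groups were again separate by a narrow margin, and 66 exonic bases of Dusp8 are shared with a gene of the opposite strand, whose reads cannot be told apart.

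Dusp9 was the member with the smallest unadjusted p. Its raw counts were 0, 0 and 1 in FoscKO libraries, against 31, 17 and 36 in Control libraries. Reads were thus almost absent in FoscKO and few in Control. The summed counts were 1 in FoscKO and 84 in Control, a Control over FoscKO ratio of 93.8 whose 95% interval of 16.4 to 3749 covers counting error only. The same even background would place 8.98 to 12.7 reads on Dusp9 in each FoscKO library and 10.7 to 14.4 in each Control library. FoscKO lay below it, so here too it is too high for Dusp9 to serve as a floor, and Control lay above it. The edgeR test gave an unadjusted p of 5.53e-05 and an adjusted p of 0.0918. Over the alternatives and left-out libraries the adjusted p ran from 3.82e-04 with no filter to 0.654 without Control replicate 1, and it was 0.0361 without FoscKO replicate 1. In DESeq2 it was not given. The same gene was carried mostly by 1 library in FosGFP+.

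Dusp1, Dusp4, Dusp10 and Dusp16 overlapped between FoscKO and Control. Dusp1 had 3162, 1143 and 1800 CPM in FoscKO libraries, against 1866, 2070 and 1705 CPM in Control libraries. The FoscKO libraries spanned more than the whole Control range, the log2 fold change was 0.11 ± 0.36 (SE; adjusted p = 0.973, edgeR), and its sign turned to -0.35 without FoscKO replicate 1. Dusp10 had 233, 104 and 133 CPM in FoscKO libraries, against 294, 193 and 155 CPM in Control libraries. The log2 fold change was -0.45 ± 0.33 (SE; adjusted p = 0.914, edgeR). Without FoscKO replicate 1 it was -0.85 ± 0.27 (SE; adjusted p = 0.519, edgeR), and the remaining FoscKO libraries were below all Control libraries. Dusp4 had 18.8 to 76.2 CPM in FoscKO and 31.0 to 44.0 CPM in Control libraries, and Dusp16 had 78.3 to 86.3 CPM in FoscKO and 49.6 to 82.4 CPM in Control libraries.

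Ratios between members of 1 library do not depend on how the library is scaled. They were computed per kb of exon for the 28 pairs of the 8 members with a count in every library. The ratios were chosen after the values were seen, and are given with no test. Pairs share members, so they are not separate results, and the share of all gene pairs without overlap was not computed. In FosGFP+ against FosGFP-, 14 of the 28 ratios did not overlap, and Dusp1 was lower relative to each of the 7 others. The ratio of Dusp1 to Dusp10 was 3.64, 3.09, 3.30 and 3.86 in FosGFP+ libraries, against 13.7, 11.7, 9.15 and 17.4 in FosGFP- libraries. The ratio of Dusp1 to Dusp6 was 12.6, 12.5, 9.42 and 10.9 in FosGFP+ libraries, against 32.5, 34.1, 41.7 and 44.6 in FosGFP- libraries. The first ratio was 3.66-fold and the second 3.36-fold lower in FosGFP+, with a wide gap between the groups. Of all 20069 genes with a count in every library, 24.2% were higher relative to Dusp1 without overlap. The share with a log2 difference at least that of Dusp10 relative to Dusp1 was 1.63%. It was 2.54% for Dusp5, 2.55% for Dusp6 and 4.78% for Dusp4, but 15.1% for Dusp16, 23.5% for Dusp8 and 36.4% for Dusp2. In contrast, the ratio of Dusp6 to Dusp10 overlapped, at 0.310 ± 0.0511 in FosGFP+ and 0.344 ± 0.0886 in FosGFP- (SD, n = 4 each).

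In FoscKO against Control, 12 of the 28 ratios did not overlap, 6 of them with Dusp5 lower. Of the 20885 genes with a count in every library, 34.3% were higher relative to Dusp5 without overlap, so that such separations were common. The ratio of Dusp6 to Dusp10 was 1.65, 1.72 and 1.77 in FoscKO libraries, against 0.597, 0.530 and 0.500 in Control libraries. Its spread within a group was small next to the 3.17-fold difference, and FoscKO replicate 1 was in place with the other FoscKO libraries. The ratio of Dusp5 to Dusp6 was 0.298, 0.244 and 0.388 in FoscKO libraries, against 1.03, 1.18 and 1.67 in Control libraries, again without overlap. Many genes were lower relative to Dusp6 as well, 38.9% of the 20885 without overlap. Of the same 20885 genes 26.2% had a log2 difference at or below the -1.66 of Dusp10, and 12.6% one at or below the -2.05 of Dusp5. Dusp10 thus fell relative to Dusp6 no more than many genes did. Dusp6 itself was less common, since 1.54% of the 20885 genes had a log2 difference relative to Dusp5 at least as high. Exact permutation of 3 against 3 libraries cannot give a two-sided p below 0.10.

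**Figure D3:**
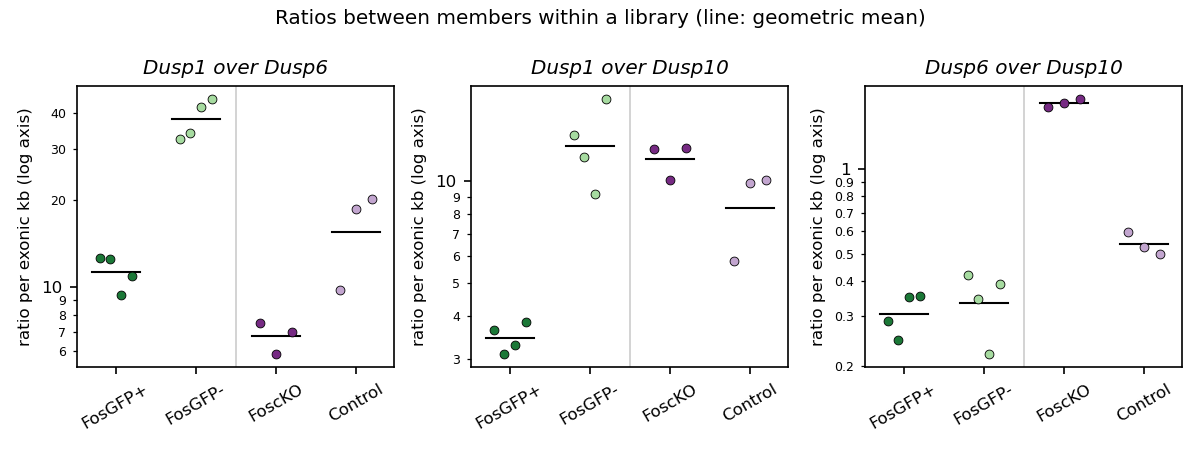
Ratios of CPM per exonic kb between members of the same library (log axis), with FosGFP+ and FosGFP- left of the grey line and FoscKO and Control right of it; points are libraries and lines geometric means. Dusp1 over Dusp6 and Dusp1 over Dusp10 were lower in every FosGFP+ library than in any FosGFP- library, and Dusp6 over Dusp10 was 1.65 to 1.77 in FoscKO and 0.500 to 0.597 in Control.

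Per kb of exon, Dusp1 gave the bulk of the family's signal in all 14 libraries. Its share of the summed CPM per kb was 59.8% ± 1.27 in FosGFP+ and 82.0% ± 3.04 in FosGFP- (SD, n = 4 each), and it was 70.4% ± 2.72 in FoscKO and 73.1% ± 5.49 in Control (SD, n = 3 each). Dusp10 took 17.3% ± 1.66 in FosGFP+ and 6.61% ± 1.57 in FosGFP- (SD, n = 4 each), and was second in each of those groups. In FosGFP+ libraries Dusp10 was clear of its neighbours in the order, at 112 to 157 CPM per kb, while Dusp5, Dusp6, Dusp8, Dusp4 and Dusp16 followed with ranges that each overlapped the next. In FosGFP- libraries Dusp10 overlapped Dusp5, which overlapped Dusp8, and Dusp8 overlapped Dusp6.

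Dusp6 held the second place in FoscKO, with a share of 10.4% ± 0.975, against 4.90% ± 1.70 and the fourth place in Control (SD, n = 3 each). The level ranges of Dusp6 and Dusp10 overlapped in FoscKO, and those of Dusp10, Dusp5, Dusp6 and Dusp8 each overlapped the next in Control. Dusp2 was eighth and Dusp9 last in all 4 groups. The summed level of the 9 genes was 602 to 826 CPM per kb in FosGFP+ and 671 to 798 CPM per kb in FosGFP-, with overlap, and 511 to 1309 CPM per kb in FoscKO and 687 to 842 CPM per kb in Control, with FoscKO replicate 1 the highest. The make-up of the family thus differed between FosGFP+ and FosGFP- more clearly than its sum.

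**Figure D4:**
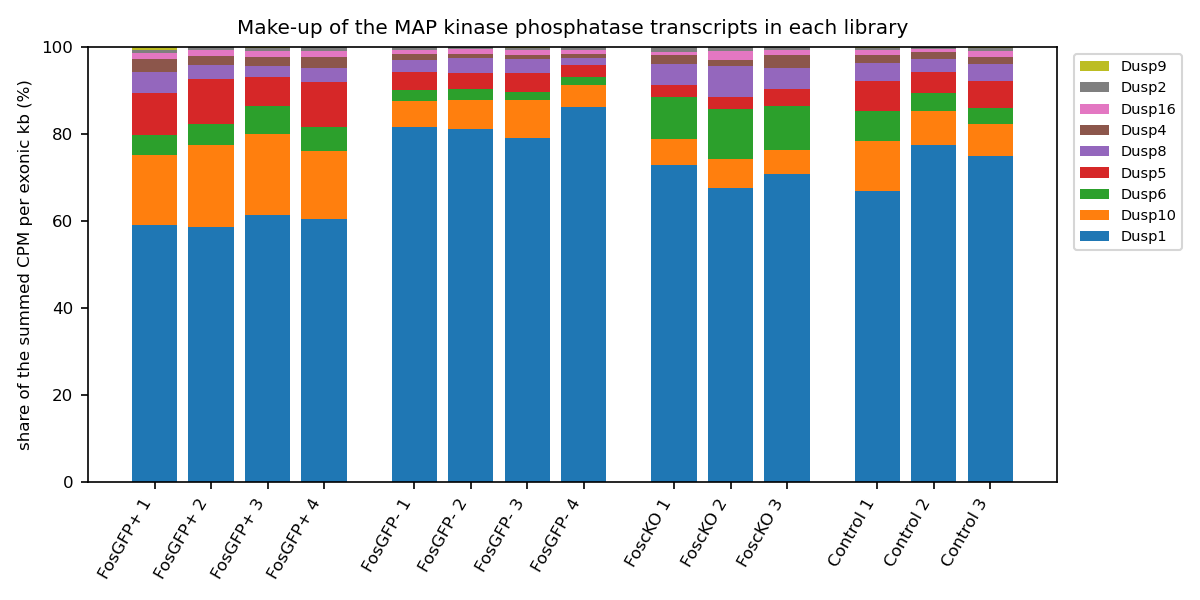
Share of each phosphatase in the summed CPM per exonic kb of the 9 genes (bars, linear axis to 100%), 1 bar for each library, FosGFP+ libraries before FosGFP- and FoscKO before Control. The Dusp1 share was 58.6% to 61.3% in FosGFP+ libraries and 79.1% to 86.2% in FosGFP- libraries.

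Each member was set beside every gene of at least 10 CPM in both tables (10115 genes) by the root mean square difference in log2(CPM + 1) over the 14 libraries, centred within each table. Genes of the same table share their libraries and depth, and the measure is a description. Dusp10 was nearest to Nop16, Ptbp1 and Myc, at 0.153, 0.156 and 0.162. Dusp5 was nearest to Tec, Ndrg1 and Sgk1, at 0.233, 0.262 and 0.275, and its nearest family member, Dusp10 at 0.294, came seventh among all genes. Seen from Dusp10, Dusp5 was also the nearest member but came only 179th. Dusp6 was nearest to Rraga, Sox4 and Herpud1, at 0.235, 0.242 and 0.250, and its nearest member, Dusp4 at 0.468, came 959th. Dusp16 was nearest to Pik3ca, Rc3h1 and Ube2w, at 0.132, 0.142 and 0.156, and Dusp8 to Tnfaip1, Ncoa1 and Dctn1, at 0.190, 0.191 and 0.198. Hsf1 and Actb were among the nearest to Dusp4, at 0.262 and 0.270. Dusp1 was nearest to Smim19, Htra3 and Pfdn5, at 0.176, 0.180 and 0.181, and no family member was closer to it than the median of all genes.

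The kinases on which these phosphatases act, and their other regulators, were read from lists chosen with earlier results known. Their counts stand beside 10.3% of all genes called higher and 1.85% lower, and they depended on the scaling. In FosGFP+ against FosGFP-, no other DUSP gene was called of 16 tested by edgeR with TMM, DESeq2 or limma-voom (2 had an unadjusted p under 0.05 in edgeR), with a median log2 fold change of -0.16 against -0.18 for all genes. In edgeR 1 was called lower with total counts and 3 with TMM from genes of at least 50 CPM. Of the MAP kinases, 2 of 10 rose, among them Mapk6 (0.88 ± 0.21, SE), but 0 were called with total counts, and with TMM from genes of at least 50 CPM 0 were called higher and 4 lower. Of the MAP kinase kinases, 3 of 7 rose, led by Map2k3, an activator of p38, and with either of those scalings 1 was called higher and 1 lower. Map2k3 averaged 1049 ± 145 CPM in FosGFP+ and 346 ± 136 CPM in FosGFP- (SD, n = 4 each), and its log2 difference of 1.60 ± 0.23 (SE) was called under all 4 other scalings. Map2k2, also called, turned to -0.02 with TMM from genes of at least 50 CPM. Of the RAS, RAF and MAP3 kinases 4 of 18 rose, among them Map3k7 (0.97 ± 0.22, SE), a kinase upstream of JNK and p38, which was not called with total counts. With either of those scalings 1 of this list was called higher and 1 lower. Of the MAP kinase-activated kinases 3 of 10 rose, among them Rps6ka3 (1.45 ± 0.20, SE), an ERK target, and Mapkapk2 (1.44 ± 0.21, SE), a p38 target. Rps6ka3 and Mapkapk2 were called under all 4 scalings, while the list had 2 higher and 0 lower with total counts and 2 higher and 2 lower with TMM from genes of at least 50 CPM.

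Of the other phosphatases of MAP kinases 5 of 10 rose, led by Ppp2ca (1.03 ± 0.18, SE), the catalytic subunit of PP2A, but 1 was called higher and 1 lower with total counts, and 0 higher and 1 lower with TMM from genes of at least 50 CPM. Of the ERK feedback and ETS output genes 4 of 12 rose, led by Spred1 and Spry2, both inhibitors of RAS to ERK signalling. Spred1 averaged 550 ± 67.8 CPM in FosGFP+ and 147 ± 54.1 CPM in FosGFP- (SD, n = 4 each), differing by 1.90 ± 0.23 on the log2 scale (SE), and Spry2 changed by 1.50 ± 0.25 (SE). Both were called under all 4 scalings, but the list had 3 higher and 2 lower with total counts and 2 higher and 5 lower with TMM from genes of at least 50 CPM. The AP-1 and SRF immediate early genes split, with 2 of 16 higher and 6 lower, and 2 higher and 8 lower with either of those scalings. Fosl1 (1.93 ± 0.21, SE) and Myc (1.64 ± 0.18, SE) rose and Jun (-1.37 ± 0.19, SE) fell, under all 4 scalings too.

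In FoscKO against Control no gene of any of these lists was called by edgeR. DESeq2 called 2 of 13 ERK feedback and ETS output genes and 3 of 16 AP-1 and SRF genes. Among all 21885 genes it called 59 higher and 32 lower. At an unadjusted p under 0.05 edgeR had 5 of the first list and 10 of the second, against 5.52% of all genes. The smallest p-values belonged to Spry1, another RAS to ERK inhibitor, and Fosl1, an AP-1 subunit. Spry1 averaged 1637 ± 704 CPM in FoscKO and 371 ± 28.7 CPM in Control (SD, n = 3 each), a difference of 2.14 ± 0.33 on the log2 scale (SE; adjusted p = 0.0823, edgeR). Fosl1 averaged 206 ± 49.2 CPM in FoscKO and 706 ± 135 CPM in Control (SD, n = 3 each), a difference of -1.77 ± 0.29 on the log2 scale (SE; adjusted p = 0.0918, edgeR). Both were called with total counts. Over the 16 AP-1 and SRF genes the median log2 fold change was 0.86 against -0.04 for all genes, with 14 of 16 above 0.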

How the data were processed

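RNA of 14 libraries was made into cDNA by SMART-Seq v4 chemistry, which keeps no strand, and into libraries with Nextera XT for HiSeq sequencing, per the labels' protocols. The submitters' processing notes name limma, DESeq2 1.20.0, HTSeq 0.6.1 and STAR 2.5.0c and the build GRCm38, without roles. The authors deposited raw counts per Ensembl gene in 1 table for each dataset, with 49671 genes, of which 49412 were found in GENCODE M21. HTSeq lines that name no gene held 69.8% to 89.7% of the reads and were left out. The authors also deposited tables of their own comparisons, with log2 fold changes, their standard errors, a test score, a mean signal and p-values. As deposited, these fold changes ran opposite to those of edgeR here, with rank correlations of -0.997 over 3398 genes and -0.991 over 69. They were therefore read as reference over test and turned round where quoted, so they give no separate check of direction. Another 14 per-library columns of those tables match no label and were not used.

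Each dataset was fitted apart with edgeR 4.0.16 (R 4.3.3): filterByExpr, TMM scaling, and the robust quasi-likelihood F-test, two-sided, with no covariate. Benjamini-Hochberg adjusted p-values under 0.05, over all genes tested, were called. The SE of a log2 fold change is its size over the square root of F. CPM use TMM library sizes. The fits were tested on simulated data. Intervals of summed counts are exact binomial, at 95%, and cover counting error only.

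Members and lists were chosen with earlier results of these data known. Named genes are the 9 members, Fos, the 3 genes of each list with the smallest p in each comparison (of which some are printed) and the 3 nearest to each member; a few of these are not reported here. Alternatives were total counts, size factors of DESeq2, TMM on genes of 50 CPM or more, library sizes less the 20 most abundant genes, no filter, a mean of at least 5 CPM, DESeq2 1.42.0, limma-voom (limma 3.58.1), a block for replicate number, an even background subtracted, and each library left out.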

Additional observations from a re-analysis of the deposited data

Results flagged for a closer look

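Of 18 groups of 4 libraries tested for a library far from the rest, 1 was noted, and chance alone gives about 1 in 20. FosGFP+ replicate 1 had 14.1 CPM of Dusp9, against 1.31 to 3.41 CPM in the other FosGFP+ libraries. The gap to the nearest was 0.835 of the whole range. Without it the summed Dusp9 counts were 30 in FosGFP+ and 13 in FosGFP-.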

How the results depend on the processing

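The number of members called in FosGFP+ against FosGFP- was 4 to 6 over all settings and 4 to 5 with a library left out. The split was 3 higher and 1 lower with total counts, with TMM from genes of at least 50 CPM and with the even background subtracted, where Dusp1 was called lower and Dusp4 was not called. Dusp1 was called lower in 5 of 10 alternatives and Dusp16 higher in 4 of 10. Dusp2 (0.08) turned to -0.33 with total counts, -0.55 with TMM from genes of at least 50 CPM and -0.045 with the background subtracted, and Dusp8 (0.38) to -0.19 with TMM from genes of at least 50 CPM. The number of members called in FoscKO against Control was 0, 2 with no filter (Dusp6 higher, Dusp9 lower), and 0 to 1 with a library left out, the 1 being Dusp9 without FoscKO replicate 1. The uncalled Dusp1 value there (0.11) turned to -0.18 with total counts, -0.19 with TMM from genes of at least 50 CPM, -0.0030 at a mean of at least 5 CPM, -0.0078 in limma-voom, -0.053 with the background subtracted and ran from -0.35 (without FoscKO replicate 1) to 0.42 with a library left out. The causes were not tested. Ranking by CPM in place of CPM per kb moved 4 members in FosGFP+, 5 in FosGFP-, 5 in FoscKO and 4 in Control. With a pseudocount of 0.1 the 3 nearest genes were the same for each member except Dusp1, which lost Smim19.

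The labels do not say whether same-numbered libraries come from 1 mouse, and they were not treated as pairs: deviations of same-numbered libraries correlated at -0.020 to 0.020 in the first dataset and -0.0069 to 0.12 in the second. With the replicate block 4 members were called in FosGFP+ against FosGFP- and 1, Dusp9, in FoscKO against Control, where Dusp1 was -0.0031. The block gave 2002 genes higher and 278 lower in the first dataset and 23 higher and 20 lower in the second, against 2125, 383, 0 and 0 without it. Other settings called, in the second, 12 higher and 33 lower with total counts, 85 and 46 with no filter, 59 and 32 in DESeq2.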
